A study of Mus musculus with 18 samples.

Results

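RAW264.7 mouse macrophages, a cell line, were given a St John's wort (Hypericum perforatum) sub-fraction with or without lipopolysaccharide (LPS), a component of the outer membrane of Gram-negative bacteria, and the question here is where the response to LPS differed between cells with and without the fraction. That difference, called the interaction below, was taken for every probe set (a set of probes for 1 transcript) as Fraction+LPS minus Fraction, less Media+DMSO+LPS minus Media+DMSO, on log2 of the signal with values under 1 set to 1. It used 12 of the 18 arrays of the series, with 3 in each of 4 groups. Fraction+LPS cells received the fraction at 10 ug/mL with LPS at 10 ug/mL, and Fraction cells the same fraction without LPS. Media+DMSO+LPS cells received the solvent, DMSO at 0.1% in medium, with the same LPS. Media+DMSO cells received the solvent alone, and both groups are called vehicle cells. The labels give no DMSO content for the fraction cells. Treatment lasted 8 h in every group, and was applied in the dark with 30 min of ambient light afterwards. The other 6 arrays held cells given 4 compounds (4CS), namely amentoflavone at 0.07 uM, quercetin at 0.08 uM, chlorogenic acid at 0.2 uM and pseudohypericin at 0.03 uM, with LPS (4CS+LPS) or without it. Nothing in the labels says that the arrays within a group are separate cultures, and p-values therefore measure only how far these samples spread, which may be technical.

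A positive interaction means that LPS moved a transcript further up, or less far down, in fraction cells than in vehicle cells, and a negative one the reverse. LPS acts through Toll-like receptor 4. One branch of the signal runs through MyD88 to NF-kB and MAP kinases and turns on genes of cytokines, chemokines and prostaglandin synthesis, and the other runs through TRIF to IRF3 and interferon beta. Secreted interferon then acts back on the cell through its receptor and turns on antiviral genes whose promoters carry interferon-stimulated response elements. A separate stress pathway, the integrated stress response, slows translation and raises the transcription factor ATF4, which with C/EBP factors turns on Ddit3 (CHOP), Atf3, Trib3, Nupr1 and amino acid transporters. Macrophages treated with LPS also leave the cell cycle, and genes of DNA replication then go down.

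Stretches of promoter that hold the motif named are shown for members of these groups whose interaction passed the test, so that the letters stand beside the values given below. They come from RefSeq promoters of mouse build GRCm38.p6, 250 bases before to 50 bases after the gene's start, and each is printed 5′ to 3′ on the gene's strand with 30 bases on either side of the matches where the window allows. In the first 4, capitals mark matches to the interferon-stimulated response element, searched as TTCNNTTTC on both strands, where neighbouring matches may overlap.
Ifit1 (chr19:34640750-34640843, plus strand): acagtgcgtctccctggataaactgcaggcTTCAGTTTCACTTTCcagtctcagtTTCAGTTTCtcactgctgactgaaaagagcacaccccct
Rsad2 (chr12:26456533-26456601, minus strand): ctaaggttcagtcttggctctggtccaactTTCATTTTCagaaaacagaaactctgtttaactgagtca
Irgm1 (chr11:48871406-48871480, minus strand): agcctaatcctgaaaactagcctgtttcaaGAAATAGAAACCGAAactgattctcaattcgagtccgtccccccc
Ifih1 (chr2:62646206-62646397, minus strand): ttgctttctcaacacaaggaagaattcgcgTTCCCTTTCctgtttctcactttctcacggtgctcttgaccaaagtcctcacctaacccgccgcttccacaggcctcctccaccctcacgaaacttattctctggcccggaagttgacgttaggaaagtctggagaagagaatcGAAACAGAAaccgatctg
In the next 5, capitals mark matches to the ATF4 and C/EBP composite element, searched as TGATGNAA on both strands.
Nupr1 (chr7:126625543-126625610, minus strand): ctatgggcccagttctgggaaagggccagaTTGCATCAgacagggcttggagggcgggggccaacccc
Atf3 (chr1:191183406-191183473, minus strand): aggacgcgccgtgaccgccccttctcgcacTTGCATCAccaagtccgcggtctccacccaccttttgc
Trib3 (chr2:152344011-152344076, minus strand): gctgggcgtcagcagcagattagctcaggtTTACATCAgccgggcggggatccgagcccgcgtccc
Slc7a11 (chr3:50443623-50443709, minus strand): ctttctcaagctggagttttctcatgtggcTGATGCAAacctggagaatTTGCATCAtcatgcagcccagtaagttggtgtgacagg
Slc1a4 (chr11:20332680-20332747, minus strand): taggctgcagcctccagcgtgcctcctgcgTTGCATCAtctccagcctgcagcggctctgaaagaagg
In the last one, capitals mark the match to a minimal heat shock element, searched as GAANNTTC on both strands.
Hspa1b (chr17:34959305-34959372, minus strand): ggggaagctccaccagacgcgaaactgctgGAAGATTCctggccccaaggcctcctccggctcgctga
The response element letters were in 8.56% of 32851 promoters and in all 4 of the called interferon genes that had a promoter in the table, with Mx2 not among them. They were also in 9 of 49 genes called higher and in 10 of 64 called lower, against 8.70% of the genes on the array. The composite element letters were in 3.97% of promoters. They were in 5 of the 7 called genes of the ATF4 list, the other two being Ddit3 and Ppp1r15a, in 10 of 64 genes called lower and in 1 of 49 called higher, against 3.24% of the genes on the array. The heat shock letters were in 7.86% of promoters. They were in 5 of 49 genes called higher and in 3 of 64 called lower, against 7.60% of the genes on the array. E2F letters, TTTCCCGC or TTTGGCGC on both strands, were in 1.56% of promoters and in 1 of the 6 called replication genes, Cdc6. These letters were in 4 of 49 genes called higher and in 3 of 64 called lower, against 2.77% of the genes on the array. These matches describe letters in a window and say nothing of binding.

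Of 45037 probe sets tested in limma over all 18 arrays, 200 passed an adjusted p of 0.05 for the interaction (0.444%), 90 higher (0.2%) and 110 lower (0.244%). They belonged to 163 named genes, and no gene had called probe sets in both directions. At an unadjusted p under 0.05 there were 4049 probe sets, and the median interaction over all probe sets was -0.05. With 1 probe set for each of 18193 genes, the brightest, 58 genes were called higher (0.319%) and 76 lower (0.418%). Both shares are the background for the lists below. Of the 18193 genes, 11522 reached the array median on 3 or more of 18 arrays, among them 57 of the 58 and 73 of the 76. Shares among those genes were therefore higher, and most members of every list but the markers of other cell types were such genes. The rule of the comparison names no threshold; at the one used here the last calls inside were Chek1 at 0.74 and Sohlh1 at -4.95 (adjusted p = 0.0497 for both), and the first outside were a probe set without a symbol at -1.17 (adjusted p = 0.0501) and Cmtr1 at 1.78 (adjusted p = 0.0507).

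In both directions the median fraction effect was further from 0 without LPS than with it, with opposite signs. For the 90 probe sets called higher, the median effect of LPS was 0.61 in fraction cells and -0.30 in vehicle cells. Their median fraction effect was 0.06 with LPS and -0.94 without it, so that at their medians the fraction and vehicle groups differed mainly in cells without LPS. For the 110 called lower, the median effect of LPS was -0.87 in fraction cells and 0.20 in vehicle cells, and the median fraction effect was -0.11 with LPS and 1.14 without it. These medians describe sets chosen on the same arrays. Signals rather than their logarithms gave a difference of the same sign for 83 of the 90 and 106 of the 110.

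**Figure D1:**
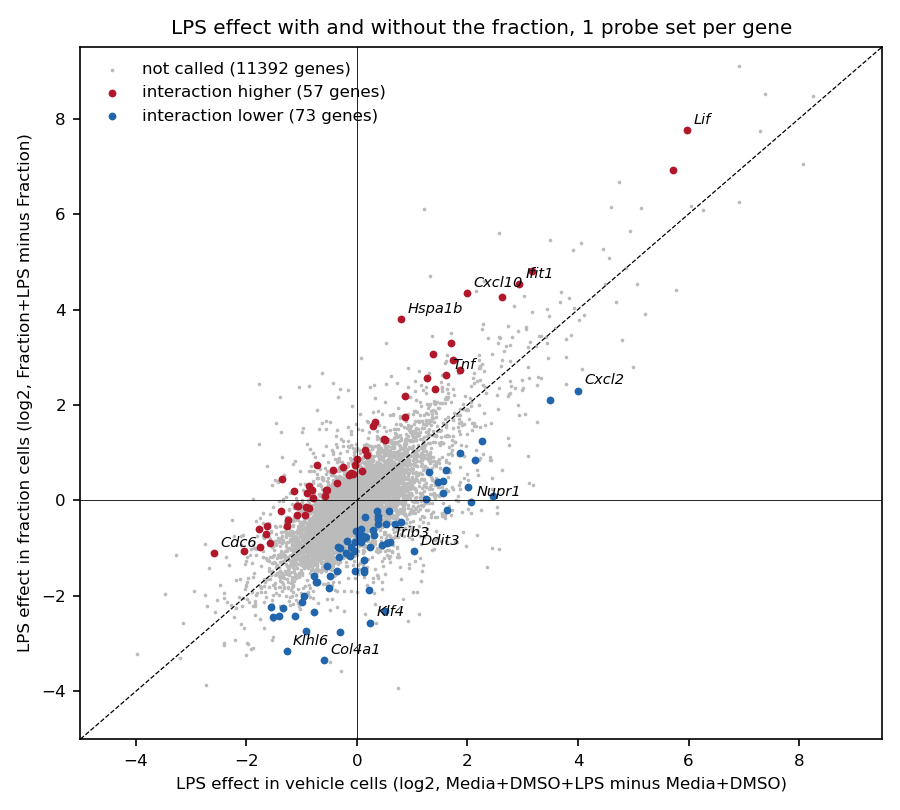
Each point is 1 gene at or above the array median on 3 or more of 18 arrays, with the log2 effect of LPS in fraction cells (Fraction+LPS minus Fraction, vertical) against that in vehicle cells (Media+DMSO+LPS minus Media+DMSO, horizontal). The dashed line marks equal effects; the 57 genes called higher lie above it and the 73 called lower beneath it, and genes such as Lif at the upper right rose with LPS in both treatments.

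The count of calls depended on single arrays and on scaling. It was 129 without Fraction+LPS replicate 1, 117 without Fraction+LPS replicate 3, 110 without Fraction replicate 2, 323 without Media+DMSO+LPS replicate 1, 96 without Media+DMSO+LPS replicate 2 and 121 without Media+DMSO replicate 3. Centring each array on its median, which moved every interaction up by 0.12, gave 59 higher and 27 lower. Of the 49 called genes described below, 29 stayed called whichever of the 12 arrays was left out. Without all arrays numbered 1, 2 or 3, 32, 5 and 3 of the 49 stayed called. Without an intensity trend in the fit 10 did, and against a minimum of 1.5-fold 4 did. Array medians lay between 52.1 and 66.8, correlations of arrays were 0.927 to 0.942 within groups and 0.909 to 0.939 between them, and the 10 macrophage markers checked, among them Csf1r, Adgre1 and Cd68, reached the array median on all 18 arrays. The summed signal of 29 markers of other cell types was 772 to 1007 on the Fraction+LPS arrays against 566 to 757 on the Fraction arrays, and 783 to 1055 on the Media+DMSO+LPS arrays against 610.5 to 753 on the Media+DMSO arrays. Of the 29 markers, 9 were at or above the array median on 3 or more of 18 arrays, and none was called; their part in the results was not tested.

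Genes of the interferon response had the highest median interaction of the 25 lists. Their list of 42 genes with a probe set had 5 called higher, Ifit1, Rsad2, Mx2, Irgm1 and Ifih1, and none lower. The 5 were 11.9% of the list, against 0.319% of all genes called higher. Of the 42 interactions 39 were above 0, with a median of 0.53, against 8160 of 18193 and a median of -0.05 for all genes. The fraction lowered all 5 called genes in cells without LPS, and its effect was nearer 0 with LPS. Over the list, the median fraction effect was -0.47 with LPS and -0.98 without it, and the median LPS effect was 1.83 in fraction cells and 1.22 in vehicle cells. Each array holds RNA of a whole culture, so a change in the share of responding cells and one in the RNA of each cell cannot be told apart.

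Cxcl10, an interferon-induced chemokine that draws T cells, had signals of 10075, 16662 and 11668 on the Fraction+LPS arrays against 534, 711 and 619 on the Fraction arrays. Vehicle cells gave 14714, 18837 and 17894 on the Media+DMSO+LPS arrays against 3121, 5219 and 4816 on the Media+DMSO arrays. The Fraction arrays lay below all others, and the ranges of the LPS-treated groups overlapped. LPS raised it by 4.34 ± 0.18 on the log2 scale in fraction cells and by 1.99 ± 0.18 in vehicle cells, an interaction of 2.35 ± 0.25 (adjusted p = 7.2e-05). The fraction effect was -0.45 ± 0.18 (adjusted p = 0.14) with LPS and -2.79 ± 0.18 (adjusted p = 7.4e-10) without it.

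Ifit1, which binds viral RNA that lacks a proper cap, had signals of 3524, 6431 and 3583 on the Fraction+LPS arrays against 150.5, 270.3 and 163 on the Fraction arrays. Vehicle cells gave 8004, 10536 and 7186 on the Media+DMSO+LPS arrays against 965, 1219.9 and 1134 on the Media+DMSO arrays. None of the 4 groups overlapped, and both fraction groups were below their vehicle counterparts. The interaction was 1.58 ± 0.31 (adjusted p = 0.024), with an LPS effect of 4.53 ± 0.22 in fraction cells and 2.94 ± 0.22 in vehicle cells. Rsad2, the antiviral enzyme viperin, gave 1.63 ± 0.34 (adjusted p = 0.035) from signals of 8584, 18911 and 11194 on the Fraction+LPS arrays against 492, 851 and 617 on the Fraction arrays. Vehicle cells gave 17631, 20546 and 15398 on the Media+DMSO+LPS arrays against 3219, 3048 and 2406 on the Media+DMSO arrays. Its fraction effect was -0.54 ± 0.24 (adjusted p = 0.21) with LPS and -2.17 ± 0.24 (adjusted p = 2.0e-06) without it.

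Mx2, an interferon-induced dynamin-like GTPase, gave an interaction of 1.69 ± 0.35 (adjusted p = 0.035), with signals of 934 to 1566 on the Fraction+LPS arrays against 89.4 to 199 on the Fraction arrays, and 1451 to 1722 on the Media+DMSO+LPS arrays against 424 to 734 on the Media+DMSO arrays. For Irgm1, a GTPase of defence against intracellular bacteria, it was 1.32 ± 0.26 (adjusted p = 0.025), and its fraction effect was called at both LPS states, -0.99 ± 0.19 with LPS and -2.31 ± 0.19 without it. Ifih1 (MDA5), a sensor of double-stranded RNA, had 0.86 ± 0.18 (adjusted p = 0.034). Among the members that did not pass were Ifit2 at 1.02 ± 0.37, Cmpk2 at 1.42 ± 0.48, Gbp2 at 1.96 ± 1.05 and Irf7 at 0.05 ± 0.33. The log2 and linear scales differed in sign for Cxcl10, Rsad2, Ifit1 and Irgm1. For Ifit1 the linear difference of differences was -3151 ± 1394 signal units, so that LPS added fewer units in fraction cells although it multiplied the signal more. For the others the linear values were smaller than their standard errors, at -583 ± 2431 for Cxcl10, -2725 ± 3451 for Rsad2 and -271 ± 924 for Irgm1. Those linear values show no clear difference in either direction. Of the 5 called list members, none kept the call under every omission of 1 array, with adjusted p up to 0.103 for Mx2.

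Cytokines and chemokines did not move as a block. Of 25 cytokine and growth factor genes, 2 were called higher (8%), Lif and Tnf, and none lower, with a median of 0.22. Of 20 chemokine genes 2 were called higher (10%), Cxcl10 and Ccl5, and 1 lower (5%), Cxcl2, with a median of 0.18. Over all genes 0.319% were called higher and 0.418% lower. Lif, a cytokine of the interleukin-6 family, had signals of 11255, 10729 and 9897 on the Fraction+LPS arrays against 42.9, 59.8 and 45.9 on the Fraction arrays. Vehicle cells gave 3157, 5321 and 5640.3 on the Media+DMSO+LPS arrays against 64.1, 64.0 and 91.9 on the Media+DMSO arrays. Only the fraction and vehicle ranges without LPS came close to each other, and with LPS every fraction array was above every vehicle array. The interaction was 1.78 ± 0.30 (adjusted p = 0.0077), and the fraction effect was 1.22 ± 0.21 (adjusted p = 0.0006) with LPS and -0.56 ± 0.21 (adjusted p = 0.1) without it.

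Tnf, the early inflammatory cytokine, had signals of 27615, 23169.9 and 26182 on the Fraction+LPS arrays against 3769.9, 4691 and 3969.7 on the Fraction arrays. Vehicle cells gave 20311, 20097 and 19076 on the Media+DMSO+LPS arrays against 5674, 7179 and 6611 on the Media+DMSO arrays. The fraction arrays were above vehicle with LPS and below it without, and the interaction was 1.01 ± 0.19 (adjusted p = 0.017); the fraction effect passed the test without LPS, at -0.65 ± 0.14 (adjusted p = 0.0022), and not with it, at 0.37 ± 0.14 (adjusted p = 0.1). Ccl5 (RANTES), a chemokine for T cells and monocytes, gave 1.21 ± 0.25 (adjusted p = 0.035) on top of LPS effects of 6.93 ± 0.18 in fraction cells and 5.72 ± 0.18 in vehicle cells; it stayed called in 4 of the 12 array omissions (adjusted p up to 0.106), and Tnf in 10 (adjusted p up to 0.0546). Cxcl2, a neutrophil chemokine, went the other way at -1.70 ± 0.28 (adjusted p = 0.0056), with signals of 32825, 29165 and 33053 on the Fraction+LPS arrays against 6303, 7957 and 5305 on the Fraction arrays. Vehicle cells gave 25199, 26555 and 27119 on the Media+DMSO+LPS arrays against 1092, 1872 and 2168 on the Media+DMSO arrays. With LPS the signals were 25199 to 33053 for Cxcl2 and 19076 to 27615 for Tnf, beside a highest signal of any probe set on an array of 26264 to 41310.0. Whether an upper limit of the signal affected these values was not tested. The fraction raised Cxcl2 by 1.97 ± 0.20 (adjusted p = 4.0e-07) without LPS. On the linear scale its difference of differences was 579 ± 1616 signal units.

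Several well-known LPS targets had no called interaction. Il6 gave 0.22 ± 0.77 (adjusted p = 0.97), with signals of 11016 to 13867 on the Fraction+LPS arrays against 30.0 to 42.0 on the Fraction arrays, and 1654 to 5657 on the Media+DMSO+LPS arrays against 3.93 to 22.4 on the Media+DMSO arrays; without LPS it was below the array median on all 6 arrays. The other values were 0.44 ± 0.29 (adjusted p = 0.72) for Il1b, 2.18 ± 0.71 (adjusted p = 0.26) for Csf2 and 0.98 ± 0.32 (adjusted p = 0.28) for Socs3, a brake on cytokine receptors. Csf2 had signals of 6381 to 7722 on the Fraction+LPS arrays against 9.92 to 15.7 on the Fraction arrays, and 345 to 1089 on the Media+DMSO+LPS arrays against 3.25 to 8.15 on the Media+DMSO arrays, also below the array median without LPS. How low signals were treated changed these calls: with signals under the array median set to it, Csf2 was called at 3.18 (adjusted p = 7.3e-06) and Il6 at 1.61 (adjusted p = 0.025), and on log2 of the signal plus 32 Csf2 was called at 3.01 (adjusted p = 0.00069) and Il6 was not, at 1.21 (adjusted p = 0.35). Nos2, the inducible nitric oxide synthase, gave -0.68 ± 0.77 (adjusted p = 0.88). Il6, Csf2 and Nos2 each had signals below the array median on some arrays.

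Other genes outside these lists that LPS raised in fraction cells were called higher. Acod1, which makes itaconate, had signals of 23452, 20362 and 23128 on the Fraction+LPS arrays against 584, 1013 and 835 on the Fraction arrays. Vehicle cells gave 20885, 20814 and 19030.5 on the Media+DMSO+LPS arrays against 1471, 2598 and 2991 on the Media+DMSO arrays. The LPS-treated groups overlapped while the Fraction arrays were all below the Media+DMSO arrays. The interaction was 1.65 ± 0.26 (adjusted p = 0.005). With LPS the Acod1 signals, 19030.5 to 23452, also came near the highest signal of any probe set on an array, 26264 to 41310. Plaur, the urokinase receptor and 1 of 20 genes of matrix proteases and matrix (median -0.25), gave 1.21 ± 0.15 (adjusted p = 0.00055), with a fraction effect of -0.07 ± 0.11 (adjusted p = 0.81) with LPS and -1.28 ± 0.11 (adjusted p = 4.0e-08) without it. Micall2, a regulator of actin and junctions, gave 1.61 ± 0.29 (adjusted p = 0.011), and Dcbld2, a membrane receptor related to neuropilins, 1.28 ± 0.24 (adjusted p = 0.014). Zfp703, a transcriptional corepressor, was raised by LPS by 1.65 ± 0.20 (adjusted p = 4.0e-06) in fraction cells, with 0.33 ± 0.20 (adjusted p = 0.37) in vehicle cells, and its interaction call was kept in 3 of the 12 array omissions (adjusted p up to 0.114).

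Hspa1b, the inducible heat shock protein 70, had the highest interaction of the genes named by rule. Its signals were 899.9, 1166 and 724 on the Fraction+LPS arrays against 66.2, 79.1 and 54.6 on the Fraction arrays. Vehicle cells gave 1925, 1881 and 1422 on the Media+DMSO+LPS arrays against 889.7, 967 and 1117 on the Media+DMSO arrays. The Fraction arrays were far below every other array, while the Fraction+LPS and Media+DMSO arrays overlapped. LPS raised Hspa1b by 3.79 ± 0.17 (adjusted p = 1.3e-12) in fraction cells and by 0.81 ± 0.17 (adjusted p = 0.0018) in vehicle cells. The interaction was 2.99 ± 0.23 (adjusted p = 7.8e-07). That difference is one of log2 values: on the linear scale Hspa1b had 112 ± 217 signal units, smaller than the standard error. All 3 of its probe sets were called in this direction, and they may also bind the near-identical copy Hspa1a. It was the 1 called gene of 21 heat shock proteins, whose median interaction was 0.16. Chosen after its value was seen, a probe set of Hspa8, the constitutive heat shock protein 70, had the smallest adjusted p of all, at 1.88 ± 0.13 (adjusted p = 2.5e-07), with mean signals of 2015 on the Fraction+LPS arrays against 354 on the Fraction arrays, and 1489.7 on the Media+DMSO+LPS arrays against 963 on the Media+DMSO arrays. The brightest probe set of Hspa8 gave 0.31 ± 0.14 (adjusted p = 0.5) and stands for the gene in the list.

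**Figure D2:**
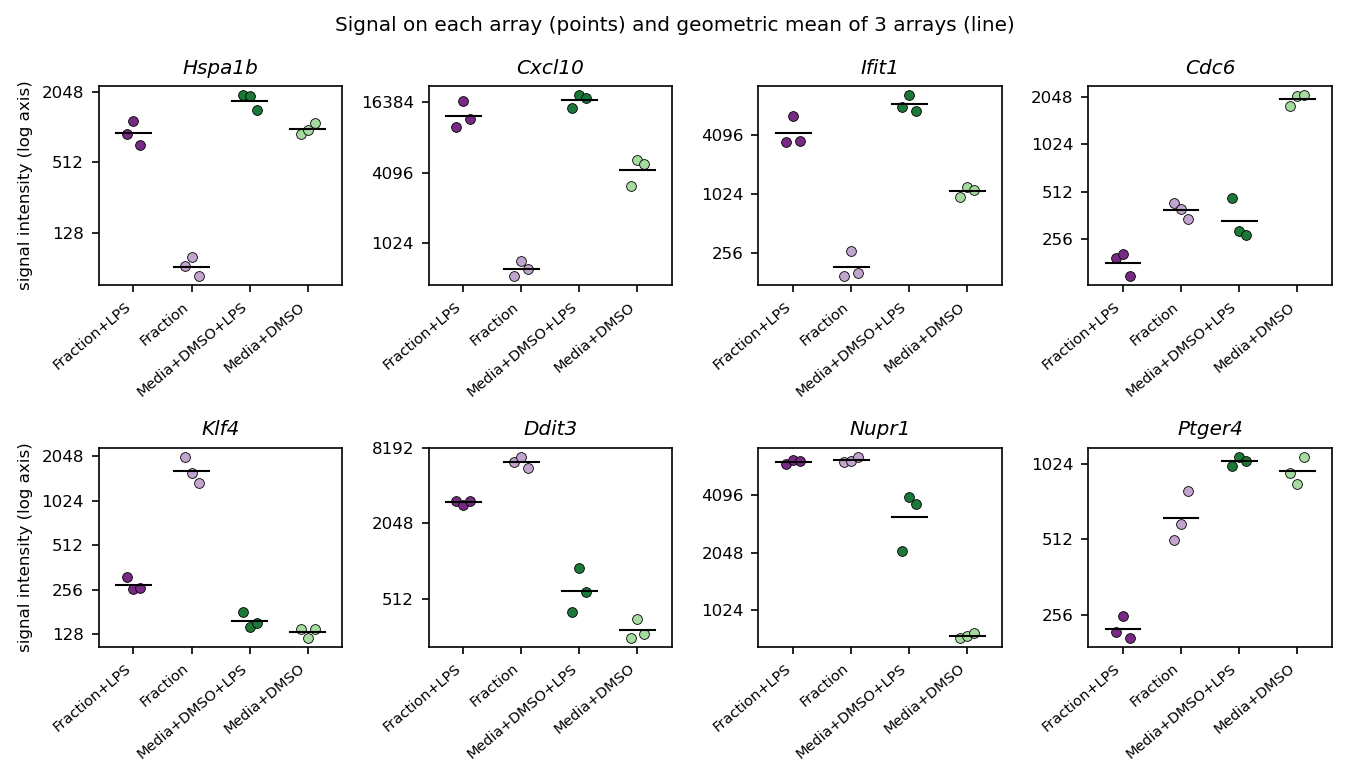
Signal intensity (vertical, log axis) of 8 genes on each array of the 4 groups (horizontal); points are arrays and lines are geometric means of 3 arrays. Hspa1b, Cxcl10 and Ifit1 were lowest on the Fraction arrays, Klf4 and Ddit3 highest there, Cdc6 highest on the Media+DMSO arrays, Nupr1 lowest there and Ptger4 lowest on the Fraction+LPS arrays.

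LPS lowered genes of DNA replication less in fraction cells than in vehicle cells, at the median of the list. Of 33 list members with a probe set, 6 were called higher, Cdc6, Chaf1b, Mcm10, Orc1, Slbp and Tyms, and none lower. The 6 were 18.2% of the list, against 0.319% of all genes called higher. In the list 30 were above 0, with a median of 0.41. The median LPS effect over the list was -0.61 in fraction cells and -0.93 in vehicle cells, and the median fraction effect was -0.37 with LPS and -0.61 without it. Cdc6, which loads the replicative helicase at origins, had signals of 193, 205 and 149 on the Fraction+LPS arrays against 432, 395 and 346 on the Fraction arrays. Vehicle cells gave 471, 289 and 271 on the Media+DMSO+LPS arrays against 1801, 2087 and 2109.7 on the Media+DMSO arrays. The Media+DMSO arrays were far above the other 3 groups and the Fraction+LPS arrays below them all. LPS lowered Cdc6 in both treatments, with an effect of -1.11 ± 0.17 in fraction cells and -2.58 ± 0.17 in vehicle cells, and the interaction was 1.48 ± 0.24 (adjusted p = 0.005).

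Mcm10, an initiation factor at origins, had signals of 614, 838 and 717 on the Fraction+LPS arrays against 631, 546 and 579 on the Fraction arrays. Vehicle cells gave 796, 786 and 815 on the Media+DMSO+LPS arrays against 1247, 1713 and 1445 on the Media+DMSO arrays. The fraction and vehicle ranges overlapped with LPS, and without LPS the fraction arrays were below the vehicle arrays. Its LPS effect was 0.30 ± 0.12 (adjusted p = 0.11) in fraction cells and -0.87 ± 0.12 (adjusted p = 2.4e-05) in vehicle cells, an interaction of 1.16 ± 0.17 (adjusted p = 0.0021). Orc1, a subunit of the origin recognition complex, gave 1.06 ± 0.17 (adjusted p = 0.0045). Slbp, which binds the stem-loop of histone mRNA, gave 0.62 ± 0.10 (adjusted p = 0.0058) from closely grouped signals of 1986 to 2192 on the Fraction+LPS arrays against 2523 to 2683 on the Fraction arrays, and 2627 to 2935 on the Media+DMSO+LPS arrays against 5171 to 5334 on the Media+DMSO arrays. Tyms, the enzyme that makes thymidylate, had 1.81 ± 0.36 (adjusted p = 0.025), but not every array omission kept that call (adjusted p up to 0.0764), and only 2 of its 3 other probe sets had the same sign.

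Replication and repair genes outside the list were also called higher, and these were picked after their values were seen. They include Rpa2, a subunit of the single-strand binding protein, at 1.15 ± 0.15 (adjusted p = 0.00072), the exonuclease Exo1 at 1.08 ± 0.16 (adjusted p = 0.002), the flap endonuclease Fen1 at 0.77 ± 0.16 (adjusted p = 0.035), Dtl, a substrate receptor of a cullin ubiquitin ligase, at 1.18 ± 0.18 (adjusted p = 0.0045), the repair translocase Rad54l at 0.95 ± 0.12 (adjusted p = 0.00053), and the phosphatase Cdc25a at 0.72 ± 0.14 (adjusted p = 0.024). In all 6 the fraction effect without LPS was negative. Ung, a uracil glycosylase, did not pass at 0.77 ± 0.32 (adjusted p = 0.44), although LPS lowered it in both treatments. Genes of mitosis and the spindle gave a different picture from replication genes, with none of 24 called, 3 above 0 and a median of -0.24; the difference between the lists was not tested. Id2, an inhibitor of basic helix-loop-helix factors, was called at 1.32 ± 0.23 (adjusted p = 0.0091), and its relative Id3, chosen after its value was seen, at 1.03 ± 0.21 (adjusted p = 0.032).

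The ATF4 and CHOP stress list had more members called lower than any other list. Of 32 list members with a probe set, 7 were called lower, Atf3, Ddit3, Nupr1, Ppp1r15a, Slc1a4, Slc7a11 and Trib3, and none higher. The 7 were 21.9% of the list, against 0.418% of all genes called lower. The list median was -0.29. Over the list, the median fraction effect was 1.21 with LPS and 1.57 without it, both above 0. Ddit3 (CHOP), a transcription factor of prolonged stress, had signals of 3076, 2875 and 3088 on the Fraction+LPS arrays against 6328, 6951 and 5618 on the Fraction arrays. Vehicle cells gave 410.5, 901 and 588 on the Media+DMSO+LPS arrays against 255, 360.2 and 272 on the Media+DMSO arrays. The groups did not overlap, and both fraction groups were above both vehicle groups. LPS moved Ddit3 by -1.06 ± 0.22 (adjusted p = 0.0017) in fraction cells and by 1.04 ± 0.22 (adjusted p = 0.0025) in vehicle cells, with opposite signs, an interaction of -2.10 ± 0.31 (adjusted p = 0.0029). The fraction effect was 2.32 ± 0.22 with LPS and 4.42 ± 0.22 without it.

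Nupr1, a stress-induced chromatin protein, had signals of 5987, 6262 and 6171 on the Fraction+LPS arrays against 6141, 6207 and 6544 on the Fraction arrays. Vehicle cells gave 2100.2, 4033 and 3688 on the Media+DMSO+LPS arrays against 738, 751 and 777 on the Media+DMSO arrays. The fraction groups overlapped, whereas the vehicle groups were apart. LPS raised Nupr1 by 2.06 ± 0.16 (adjusted p = 1.2e-08) in vehicle cells, with -0.04 ± 0.16 (adjusted p = 0.94) in fraction cells, an interaction of -2.10 ± 0.23 (adjusted p = 7.3e-05). Trib3, a pseudokinase that binds AKT and CHOP, had signals of 2631, 2816 and 2829.7 on the Fraction+LPS arrays against 5239.5, 5382 and 4799 on the Fraction arrays. Vehicle cells gave 222, 371 and 273 on the Media+DMSO+LPS arrays against 187, 199 and 194 on the Media+DMSO arrays. Its interaction was -1.44 ± 0.23 (adjusted p = 0.005), with LPS effects of -0.90 ± 0.16 in fraction cells and 0.55 ± 0.16 in vehicle cells. Its probe set may also bind related transcripts.

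Atf3, a stress-induced repressor of the ATF family, gave -1.72 ± 0.33 (adjusted p = 0.021), with LPS effects of 0.28 ± 0.24 (adjusted p = 0.55) in fraction cells and 2.00 ± 0.24 (adjusted p = 3.5e-06) in vehicle cells. Ppp1r15a (GADD34), which restores translation, gave -1.39 ± 0.25 (adjusted p = 0.013). The amino acid transporters Slc1a4 and Slc7a11 gave -1.40 ± 0.26 (adjusted p = 0.016) and -0.89 ± 0.15 (adjusted p = 0.0091). Slc7a11, the cystine carrier, was raised by LPS in both treatments, with signals of 3414, 3131 and 3135 on the Fraction+LPS arrays against 1697, 1722 and 1472 on the Fraction arrays. Vehicle cells gave 1657, 1594 and 1290.1 on the Media+DMSO+LPS arrays against 417, 439 and 377 on the Media+DMSO arrays. On the linear scale its difference of differences was positive, at 494 ± 168 signal units. Of 23 genes of endoplasmic reticulum chaperones and XBP1 targets, 2 were called lower (8.70%, against 0.418% of all genes), with a list median of -0.05. They were the stress sensor Ern1 (IRE1) at -1.01 ± 0.20 (adjusted p = 0.023) and Herpud1 of protein degradation at -0.71 ± 0.16 (adjusted p = 0.05). Herpud1 stayed called in 2 of the 12 array omissions (adjusted p up to 0.153), Ern1 in 8 (adjusted p up to 0.0815) and Atf3 in 6 (adjusted p up to 0.0756). With arrays centred on their medians, the ATF4 list had 3 genes called lower and the chaperone list none, and the interferon and replication lists had 3 and 5 called higher.

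Klf4 had the lowest adjusted p of the Kruppel-like factors called lower. Of 31 genes of the AP-1, early response and Kruppel-like list, 4 were called lower, Klf4, Klf6, Klf9 and Klf10, and none higher. The 4 were 12.9% of the list, against 0.418% of all genes called lower. The list median was -0.47. Klf4, a zinc finger factor of macrophage activation and of stem cells, had signals of 312, 259.6 and 261 on the Fraction+LPS arrays against 2039.8, 1572 and 1351 on the Fraction arrays. Vehicle cells gave 179.6, 143 and 151 on the Media+DMSO+LPS arrays against 139, 121 and 139 on the Media+DMSO arrays. The Fraction arrays were far above every other array, and the vehicle groups came close to each other. LPS moved Klf4 by -2.56 ± 0.20 (adjusted p = 8.3e-09) in fraction cells and by 0.24 ± 0.20 (adjusted p = 0.54) in vehicle cells, an interaction of -2.80 ± 0.28 (adjusted p = 4.0e-05). The fraction effect was 0.81 ± 0.20 (adjusted p = 0.01) with LPS and 3.62 ± 0.20 (adjusted p = 9.4e-11) without it.

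Klf9 had signals of 381 to 527 on the Fraction+LPS arrays against 1719 to 2177 on the Fraction arrays. Vehicle cells gave 339 to 448 on the Media+DMSO+LPS arrays against 579 to 934 on the Media+DMSO arrays. Its interaction was -1.05 ± 0.23 (adjusted p = 0.047), and none of its other probe sets was called. Those at or above the array median on all 18 arrays gave -0.21 ± 0.32 (adjusted p = 0.92) and -1.07 ± 0.35 (adjusted p = 0.27). For Klf10, which is induced by TGF-beta, LPS lowered the signal in both treatments, and the interaction was -0.91 ± 0.20 (adjusted p = 0.043). Klf6 gave -1.22 ± 0.27 (adjusted p = 0.041), with LPS effects of 0.03 ± 0.19 (adjusted p = 0.96) in fraction cells and 1.25 ± 0.19 (adjusted p = 6.8e-05) in vehicle cells. With arrays centred on their medians the list had 1 gene called lower, Klf4. The calls of Klf6, Klf9 and Klf10 each ended when single arrays were left out, with adjusted p up to 0.136, 0.141 and 0.130. Chosen after their values were seen, the leucine zipper factors Cebpd at -1.30 ± 0.20 (adjusted p = 0.0041) and Jdp2 at -0.96 ± 0.15 (adjusted p = 0.0041) were called lower too.

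Ptger4 (EP4), a receptor of prostaglandin E2 that restrains macrophages, had a fraction effect that was larger in size with LPS, unlike the median of those called lower. Its signals were 219, 253 and 207 on the Fraction+LPS arrays against 509.9, 589 and 796 on the Fraction arrays. Vehicle cells gave 1007, 1095 and 1048 on the Media+DMSO+LPS arrays against 940.4, 853 and 1091 on the Media+DMSO arrays. The Fraction+LPS arrays lay below all other arrays, and the vehicle groups overlapped. The fraction effect was -2.22 ± 0.13 (adjusted p = 7.0e-10) with LPS and -0.62 ± 0.13 (adjusted p = 0.0026) without it, and the interaction was -1.60 ± 0.19 (adjusted p = 0.00022). Gch1, which makes the cofactor of nitric oxide synthases, was the other one called of 26 genes for prostaglandins, leukotrienes and nitric oxide. Its interaction was -1.08 ± 0.18 (adjusted p = 0.0059). The 2 were 7.69% of the list, against 0.418% of all genes called lower, and the list median was -0.28. Ptgs2 (cyclooxygenase 2), the inducible enzyme of prostaglandin synthesis, did not pass at -0.51 ± 0.24 (adjusted p = 0.55), with signals of 25256 to 27906 on the Fraction+LPS arrays against 4578 to 7024 on the Fraction arrays, and 19505 to 25578 on the Media+DMSO+LPS arrays against 2591 to 4575 on the Media+DMSO arrays.

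In Tifa and Klhl6 too, the fraction effect was negative with LPS. Tifa, an adaptor of TRAF6 signalling, had signals of 46.1, 74.6 and 44.9 on the Fraction+LPS arrays against 252, 373 and 505 on the Fraction arrays. Vehicle cells gave 125, 161 and 219 on the Media+DMSO+LPS arrays against 197, 186 and 228 on the Media+DMSO arrays. The interaction was -2.45 ± 0.35 (adjusted p = 0.002). Its fraction effect was -1.61 ± 0.25 (adjusted p = 0.00016) with LPS and 0.83 ± 0.25 (adjusted p = 0.028) without it, with the Fraction+LPS arrays below all the others. Klhl6, a substrate adaptor of cullin ubiquitin ligases, gave -1.89 ± 0.28 (adjusted p = 0.0025), with LPS effects of -3.16 ± 0.20 in fraction cells and -1.27 ± 0.20 in vehicle cells. Map2k3os, a transcript from the strand opposite Map2k3, gave -1.63 ± 0.21 (adjusted p = 0.00069). Gadd45g, a stress gene and the 1 called of 25 p53 and apoptosis genes, gave -1.57 ± 0.35 (adjusted p = 0.048), and lost the call in all but 2 of the 12 array omissions (adjusted p up to 0.143).

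Fcgr2b, the inhibitory IgG receptor, was the 1 called of 25 macrophage identity genes, whose median was 0.05 with 13 above 0. It had signals of 3338, 3069 and 3368 on the Fraction+LPS arrays against 3329.6, 4157 and 3812 on the Fraction arrays. Vehicle cells gave 468, 1287 and 938 on the Media+DMSO+LPS arrays against 245, 287 and 268 on the Media+DMSO arrays. Both fraction groups were above both vehicle groups; the fraction groups overlapped and the vehicle groups did not. The LPS effect was -0.20 ± 0.22 (adjusted p = 0.67) in fraction cells and 1.64 ± 0.22 (adjusted p = 2.3e-05) in vehicle cells, an interaction of -1.84 ± 0.32 (adjusted p = 0.0087). Cd83, a maturation marker and the 1 called of 21 antigen presentation genes (median -0.03), gave -1.38 ± 0.23 (adjusted p = 0.0056), with LPS effects of 2.11 ± 0.16 in fraction cells and 3.49 ± 0.16 in vehicle cells. Chosen after their values were seen, the inhibitory receptor Cd300a at -1.37 ± 0.18 (adjusted p = 0.0008) and Clec7a (dectin-1), the receptor of beta-glucans, at -1.46 ± 0.24 (adjusted p = 0.0058) were called lower.

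The remaining genes with the lowest interactions were Slc46a3, Col4a1, Arid5a, Klhl24 and Hdac9, and in all 5 the fraction raised the signal without LPS. Slc46a3, a solute carrier of the lysosome, had signals of 61.0, 55.9 and 85.4 on the Fraction+LPS arrays against 361, 391 and 259.9 on the Fraction arrays. Vehicle cells gave 37.0, 31.5 and 37.1 on the Media+DMSO+LPS arrays against 26.3, 33.5 and 16.8 on the Media+DMSO arrays. The Fraction arrays were above all others, and the vehicle groups were below the array median on every array. The interaction was -2.84 ± 0.53 (adjusted p = 0.016). Col4a1, a chain of basement membrane collagen, gave -2.75 ± 0.53 (adjusted p = 0.019), with a fraction effect of 0.43 ± 0.37 (adjusted p = 0.61) with LPS and 3.19 ± 0.37 (adjusted p = 3.7e-06) without it. Slc46a3 stayed called in 11 of the 12 array omissions (adjusted p up to 0.0691) and Col4a1 in 9 (adjusted p up to 0.0615).

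Arid5a, an RNA-binding protein that stabilises Il6 mRNA, had signals of 426, 589 and 489 on the Fraction+LPS arrays against 496, 533 and 389.5 on the Fraction arrays. Vehicle cells gave 293, 481 and 473 on the Media+DMSO+LPS arrays against 84.0, 44.6 and 106 on the Media+DMSO arrays. Its Media+DMSO arrays lay below all the others, whose ranges overlapped, and the interaction was -2.38 ± 0.37 (adjusted p = 0.0041). Hdac9, a class IIa histone deacetylase, gave -1.82 ± 0.26 (adjusted p = 0.002), with signals of 128 to 164 on the Fraction+LPS arrays against 886 to 1086 on the Fraction arrays, and 114 to 147 on the Media+DMSO+LPS arrays against 211 to 306 on the Media+DMSO arrays. Klhl24, a further cullin adaptor, gave -2.09 ± 0.36 (adjusted p = 0.0086). Chosen after their values were seen, 3 host genes of snoRNAs were called lower, Snhg12 at -1.20 ± 0.12 (adjusted p = 4.7e-05), Snhg5 at -1.10 ± 0.20 (adjusted p = 0.011) and Snhg1 at -0.51 ± 0.11 (adjusted p = 0.036).

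**Figure D3:**
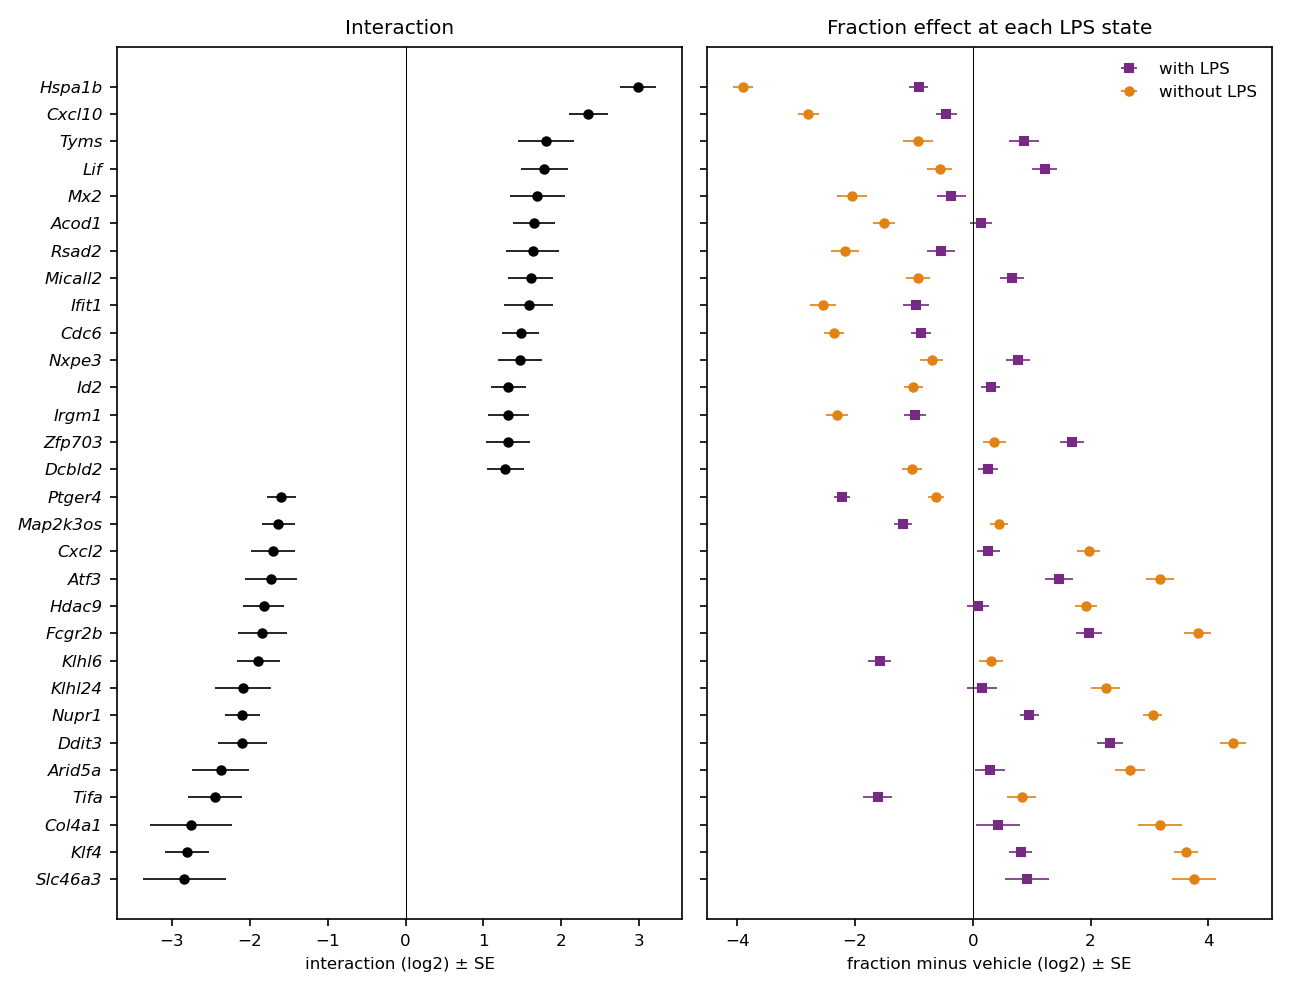
Left, the interaction (log2, point ± SE) of the 15 genes with the highest and the 15 with the lowest called interactions; right, the fraction effect (fraction minus vehicle, log2 ± SE) with LPS (squares) and without it (circles). For Hspa1b the fraction effect was -0.92 with LPS and -3.91 without it, and for Klf4 0.81 and 3.62. For Ptger4, Tifa, Klhl6 and Map2k3os the effect with LPS was negative and larger in size than that without it.

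Lipid genes gave single calls. Insig1, which holds back the sterol-sensing SREBP factors, was the 1 called of 21 cholesterol genes, whose median was -0.13. Its signals were 479, 620.4 and 546 on the Fraction+LPS arrays against 228, 190.4 and 147 on the Fraction arrays. Vehicle cells gave 909, 1264 and 1141 on the Media+DMSO+LPS arrays against 707, 988 and 1017 on the Media+DMSO arrays. The fraction groups were each below their vehicle counterparts, and the LPS effect was 1.56 ± 0.16 (adjusted p = 5.0e-07) in fraction cells and 0.30 ± 0.16 (adjusted p = 0.31) in vehicle cells, an interaction of 1.26 ± 0.23 (adjusted p = 0.013). Fasn, the fatty acid synthase and the 1 called of 31 fatty acid and lipid genes (median -0.17), gave 0.62 ± 0.12 (adjusted p = 0.026), a call that ended when single arrays were left out (adjusted p up to 0.0708).

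Lists without any call in this test were feedback inhibitors (31 genes, median -0.30, 7 above 0), NRF2 antioxidant targets (24, -0.10), JAK-STAT (27, -0.14), Toll-like receptor and NF-kB components (33, -0.05), ribosome biogenesis (22, 0.08), glycolysis and hypoxia (23, -0.06), lysosome (23, -0.18, 1 above 0) and the mitosis list above. Among the feedback inhibitors the lowest were the phosphatase Dusp1 at -1.93 ± 0.51 and Rgs1 at -1.79 ± 0.52. Hmox1, heme oxygenase 1 and an NRF2 target, gave -0.05 ± 0.20 (adjusted p = 0.98) with signals of 2585, 3189.8 and 2657 on the Fraction+LPS arrays against 2718, 3565 and 2729 on the Fraction arrays. Vehicle cells gave 713, 1049 and 780.1 on the Media+DMSO+LPS arrays against 774, 962 and 861 on the Media+DMSO arrays. The fraction raised Hmox1 by 1.74 ± 0.14 (adjusted p = 4.4e-08) with LPS and by 1.79 ± 0.14 (adjusted p = 1.3e-08) without it, so that a strong fraction effect stood beside an interaction near 0, whose sign turned with scaling and with single arrays. Centring on array medians turned the medians of the Toll-like receptor, NRF2, glycolysis, endoplasmic reticulum, antigen presentation and other cell type lists above 0, and quantile normalization gave the macrophage identity list -0.03 in place of 0.05. The medians of the interferon and replication lists stayed above 0 and those of the ATF4, Kruppel-like, mitosis and lysosome lists below 0 under all 3 other scalings. Quantile normalization also gave calls in lists that had none, with 3 lysosome genes, 1 JAK-STAT gene and 1 Toll-like receptor gene called lower.

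**Figure D4:**
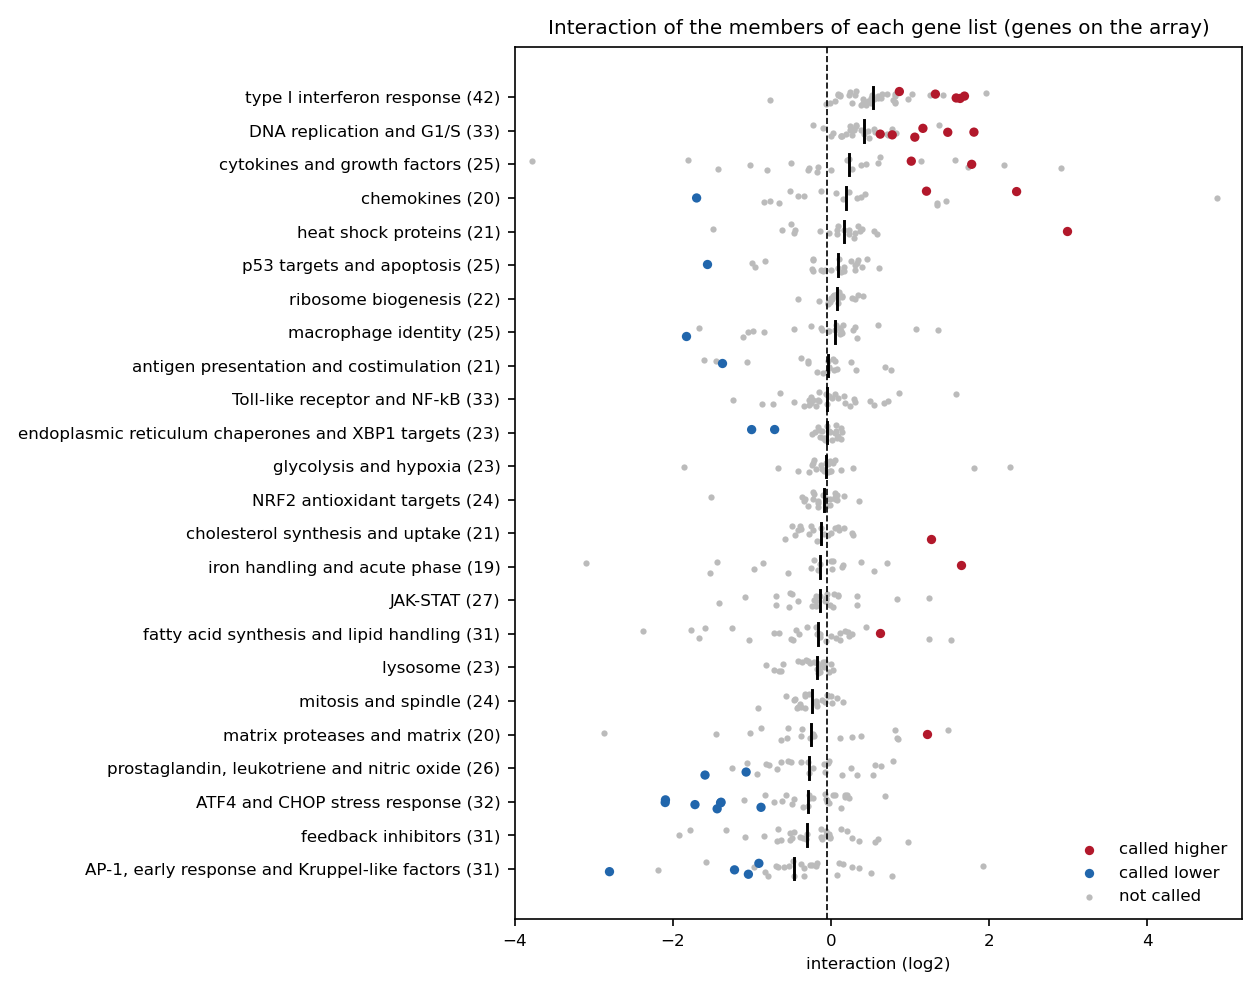
Interaction (log2, horizontal) of each member of 24 gene lists, ordered by their median (short line), with the number of genes that have a probe set in brackets; the dashed line is the median of all genes, -0.05. Members called higher are red, called lower blue and not called grey, and the interferon list has the highest median, 0.53, and the list of Kruppel-like and early response factors the lowest, -0.47.

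Probe sets that responded to LPS were then chosen on the 6 4CS arrays alone, which do not enter the interaction's value but share in the spread behind its test. Among the 609 raised at least 2-fold there, the median LPS effect was 1.66 in fraction cells and 1.58 in vehicle cells, and the median interaction was 0.06. Of them, 16 were called higher and 16 lower, 2.63% each, against 0.2% and 0.244% of all probe sets. The shares over all probe sets include many low signals. Of 45037, 25612 were at or above the array median on 3 or more arrays, among them 89 of the 90 called higher and 105 of the 110 called lower. Response to LPS and brightness were not separated in this comparison. Of the 526 raised there with a mean signal under 5000 in 4CS+LPS cells, 5 were called higher and 13 lower. Of the 230 raised at least 4-fold, 7 were called higher and 4 lower. Among the 499 lowered at least 2-fold, the median LPS effect was -1.26 in fraction cells and -1.31 in vehicle cells, with a median interaction of -0.01, and 15 were called higher (3.01%) and 10 lower (2.00%). Lif, Cxcl10 and Acod1 were among the LPS-raised genes called higher, and Cxcl2, Nupr1 and Cd83 among those called lower.

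The same interaction computed for the 4CS arrays, which shares the vehicle arrays with that of the fraction, had 0 calls in limma, with 2016 probe sets at an unadjusted p under 0.05 (4.48%) and a smallest adjusted p of 0.264. For Hspa1b it was 0.12 ± 0.23, for Cxcl10 0.22 ± 0.25, for Ifit1 -0.23 ± 0.31, for Cdc6 0.27 ± 0.24, for Klf4 -0.60 ± 0.28, for Ddit3 -0.18 ± 0.31, for Nupr1 -0.37 ± 0.23 and for Ptger4 -0.10 ± 0.19. The 2 interactions were compared directly by setting the fraction's LPS effect against that in 4CS cells, and 170 of all 45037 probe sets passed. Of the 49 called genes described here 33 passed, Hspa1b at 2.87, Klf4 at -2.21 and Ddit3 at -1.91 among them. The 49 were chosen on the same fraction arrays, so their passing is not independent support. Those of the 49 that did not pass included Arid5a at -1.29 (adjusted p = 0.15), Klhl24 at -1.19 (adjusted p = 0.19), Rsad2 at 1.27 (adjusted p = 0.13) and Tnf at 0.67 (adjusted p = 0.16).

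Of the 49 called genes, 26 had further probe sets, 52 in all, of which 47 had the same sign and 12 were also called. The exceptions were in Tyms, Nxpe3, Zfp703, Hdac9 and Ern1. Nxpe3 was called at 1.47 ± 0.28 (adjusted p = 0.02) through a single probe set, and its other one, which never reached the array median, gave -0.44. Calls at low signal need the same care: 6 of the 200 probe sets were below the array median on all but at most 2 arrays, among them 4833422C13Rik at 5.94 ± 1.09, Trpa1 at -5.87 ± 1.16, Sohlh1 at -4.95 ± 1.11 and Lcn4 at -3.85 ± 0.82, whose mean signals were at most 40.1 in every group.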

How the data were processed

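Total RNA of RAW264.7 cells was hybridized to Affymetrix Mouse Genome 430 2.0 arrays. The authors' deposited values were linear signal intensities of 45101 probe sets, made with MAS5 per the submitters' processing notes; its version is not given in the sources used here. The trimmed mean of each array was 500.0, and neither detection calls nor scans were used. The 64 control probe sets were dropped. A single symbol was annotated for 34945 of the rest, several for 932 and none for 9160; symbols were updated through a RefSeq table by Entrez ID for 34741, and 204 were kept. Intensities under 1 (0.824% of values) were set to 1, then log2 was taken.

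A mean for each of 6 groups over 18 arrays (3 each, so the number of arrays limits the precision) was fitted in R 4.3.3 with limma 3.58.1, with lmFit and eBayes and an intensity trend (12 residual degrees of freedom). Tests were two-sided, adjusted by Benjamini-Hochberg over all 45037 probe sets, and called under 0.05. The fit was tested on simulated data with independent noise on each array, which cannot check the effect of residuals shared by same-numbered arrays. The brightest probe set stood for its gene, and effects are log2 differences ± standard error.

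The comparison, its members and the 25 gene lists were chosen with earlier results of these data known. Named genes were the 15 highest and 15 lowest called interactions whose 3 arrays in a group all reached 2 times the array median, up to 4 called members of each list by p, and 13 fixed genes, 57 in all. Other members of a list are given with that list, and genes in neither are marked in the text as chosen after their values were seen, or mark the threshold or low signals. Alternatives changed the scaling, low signals, filters, arrays, variance model, minimum size, control arrays and replicate block, and one more centring was added after seeing the data. Same-numbered arrays had residual correlations of 0.011 to 0.037 over all probe sets and 0.076 to 0.390 over brighter ones. Over brighter ones the medians for differently numbered arrays were -0.116 to -0.128. Not every same-numbered pair was over 0.1 and the labels do not pair arrays, so the main fit has no block for the number. Its standard errors and p-values therefore leave out this shared structure. A fit with the block gave 505 calls, among them all 200.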

Additional observations from a re-analysis of the deposited data

Results flagged for a closer look

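LPS had effects of opposite sign, each past the threshold, in fraction and in vehicle cells for 3 of the genes described. For Ddit3 the effect was -1.06 ± 0.22 (adjusted p = 0.0017) in fraction cells and 1.04 ± 0.22 (adjusted p = 0.0025) in vehicle cells, and the difference of -2.10 passed the interaction test (adjusted p = 0.0029). For Trib3 it was -0.90 ± 0.16 (adjusted p = 0.0004) in fraction cells and 0.55 ± 0.16 (adjusted p = 0.029) in vehicle cells, with a difference of -1.44 (adjusted p = 0.005). For Nxpe3 it was 0.74 ± 0.20 (adjusted p = 0.013) in fraction cells and -0.73 ± 0.20 (adjusted p = 0.018) in vehicle cells, with a difference of 1.47 (adjusted p = 0.02). Ddit3 and Trib3 stayed called when any 1 of the 12 arrays was left out, and Nxpe3 in 7 of 12 such omissions. All 3 calls were lost without all arrays numbered 2 or 3, without an intensity trend and against a minimum of 1.5-fold.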

How the results depend on the processing

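The interaction's 200 calls (90 higher, 110 lower) became 86 (59 and 27) with median centring, 412 (168 and 244) with low signals set to the array median, and 305 (136 and 169) in the probe sets with the higher mean signals. They became 101 (47 and 54) in a fit of the 12 arrays alone, 24 (11 and 13) without an intensity trend and 6 (3 and 3) against a minimum of 1.5-fold. The cause of these shifts was not tested, except that fewer probe sets or arrays entered some fits. Quantile normalization (258 calls), the signal plus 32 (229), the filter at the array median (268), 1 probe set per gene (205), the 4CS arrays as controls (170) and the added centring (177) stayed within 1.5 times. Similar counts did not mean the same probe sets: 98 of the 170 with 4CS controls were among the 200, against 192 of the 258 with quantile normalization and 170 of the 177 with the added centring. Leaving out arrays gave 9 to 323 calls, 5 to 139 higher and 4 to 184 lower. The smallest counts came without all arrays numbered 2 (10) or 3 (9), against 184 without those numbered 1; 57 were higher without Media+DMSO replicate 2, 66 lower without Fraction+LPS replicate 1 and 46 lower without Fraction replicate 2. With the replicate number as a block there were 505 calls (234 and 271), among them all 200. Labels do not say that numbers pair arrays. Residual correlations of same-numbered arrays were 0.076 to 0.390 over 18230 brighter probe sets. Over all probe sets they were 0.011 to 0.037, and each of 12 arrays correlated best with an array of its own number. None of the 49 called named genes changed sign under any alternative; of all 200 called probe sets, 2 did with 4CS controls and 1 with low signals set to the array median. Hmox1, not called, had 0.075 with median centring, 0.17 with 4CS controls and -0.16 to 0.12 with arrays left out, and Il6, not called, -0.74 to 1.26 with arrays left out. With low signals set to the array median Il6 (1.61) and Csf2 (3.18) were called, as was Csf2 (3.01) on the signal plus 32. Median interactions over LPS-responsive sets moved by less than the spread between arrays. Signals near the array median and the brightest signals limit what small differences can show.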
